A study of Mus musculus with 6 samples.

Results

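The clustered histone genes are the replication-dependent genes for the linker histone H1 and the core histones H2A, H2B, H3 and H4, which lie in the Hist1 to Hist4 gene clusters of the mouse. Members were chosen by name: every protein-coding gene of the GENCODE M21 annotation whose symbol starts with Hist1h, Hist2h, Hist3h or Hist4h. This gave 67 of the 54532 genes in the table, with 6 H1, 18 H2A, 18 H2B, 12 H3 and 13 H4 genes. By position, 54 are in Hist1 on chromosome 13, 10 in Hist2 on chromosome 3, 2 in Hist3 on chromosome 11 and 1 in Hist4 on chromosome 6 (mm10).

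RNA was measured by sequencing in bone of female C57BL/6J mice at 16 weeks of age, in 3 wild-type libraries and 3 libraries of genotype MIR29cb2-/-, which lack the gene cluster for miR-29b-2 and miR-29c, 2 microRNAs. No treatment is labelled in either group. Nothing in the labels names the bone, the removal of marrow, the cells that carry the deletion or an animal for each library, and the p-values therefore reflect the spread of these libraries, part of which may be technical. The unit is FPKM, a count of fragments divided by exon length and by library size, so levels can be compared between genes of different length.

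Core histones form the protein spool of the nucleosome and H1 binds the DNA between nucleosomes. Dividing cells make these proteins in S phase, when new DNA has to be packaged, and in bone the marrow is the main site of cell division. Messenger RNAs of the clustered genes usually end in a short hairpin that is bound by the stem-loop binding protein SLBP, instead of a poly(A) tail, while some members are also known as polyadenylated transcripts in cells that no longer divide. The labels name an Illumina TruSeq RNA kit and total RNA as its input, and do not say whether RNA with a poly(A) tail was selected.

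The hairpin is the sequence that sets these transcripts apart. A stretch of 16 bases with a 6-base stem, a 4-base loop and the matching stem was found in the annotated transcripts of 46 of the 67 members. The sites shown are those of the most abundant H1, H4 and Hist3 genes and of 3 genes whose annotated transcript ends at the hairpin, taken from the GENCODE M21 transcripts, 5′ to 3′ on the gene's strand, with the hairpin in capitals and 5 bases on each side in lower case.
Hist1h1c, plus strand, chr13:23739507-23739532: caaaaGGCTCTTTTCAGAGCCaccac
Hist1h4i, minus strand, chr13:22040961-22040986: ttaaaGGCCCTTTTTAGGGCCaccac
Hist3h2ba, plus strand, chr11:58949344-58949369: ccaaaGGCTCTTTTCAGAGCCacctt
Hist1h2bj, plus strand, chr13:22043633-22043658: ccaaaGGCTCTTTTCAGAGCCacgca
Hist1h3g, plus strand, chr13:23535884-23535909: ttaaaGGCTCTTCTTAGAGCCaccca
Hist1h4h, plus strand, chr13:23531453-23531478: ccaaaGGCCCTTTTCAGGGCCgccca
The search fixes most of the stem, so agreement between stems is in large part set by it. Among the stems it allowed, those of the H4 hairpins differ from the others. All 34 hairpins of H1, H2A, H2B and H3 genes have the 5′ stem of Hist1h1c, while 10 of the 12 H4 hairpins have the stem of Hist1h4i and 2 have GGTCCT. The whole hairpin of Hist1h1c, GGCTCTTTTCAGAGCC, is shared by 26 members and is the most common.

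The libraries held 16085359 to 19053519 recovered reads over all genes, of which 4080 to 7154, or 0.0251% to 0.0375%, fell on the clustered histone genes. Wild-type replicate 2 and knockout replicate 1 are called the libraries set apart below, after their FPKM totals and the direction of their trends with gene length. Their FPKM summed to 489576 and 487102 over all genes, and that of the others to 355787 to 404994. In both, short genes lay above the group mean more than long ones did (Spearman's rho with exon length, across genes, of -0.42 and -0.45). The other libraries had trends the opposite way, with rho of 0.41 in wild-type replicate 1, 0.40 in knockout replicate 3, 0.28 in knockout replicate 2 and 0.18 in wild-type replicate 3. Histone genes are short, with a median exon length of 539 bases, so sums of members are also given without these libraries. As a check of the labels, A330023F24Rik, the noncoding host transcript of the deleted cluster, stood at 0.136 to 0.197 FPKM in wild type and 2.51 to 4.08 FPKM in the knockout. This higher level checks only that the groups differ at the locus, since Mir29b-2 and Mir29c themselves were at 0 in every library. Bone marrow was present in the samples by its markers, with the erythroblast list at a summed 31128 to 63809 FPKM. Markers of bone cells were present as well, with the osteoblast and osteocyte list at 738 to 3123 FPKM.

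Summed over the 67 genes, histone RNA was lower in every knockout library than in every wild-type library. The sums were 278, 326 and 297 FPKM in wild-type replicates 1 to 3 and 261, 228 and 209.8 FPKM in knockout replicates 1 to 3, with means of 300.1 ± 23.99 and 233 ± 26.2 FPKM (SD, n = 3) and a knockout over wild-type ratio of 0.776. Per 1000000 of each library's FPKM total, the sums were 782, 665 and 732 in wild type and 537, 574 and 536 in the knockout. These totals ran from 355787 to 489576. Library factors from the median ratio over genes, another scaling, ran only from 0.992 to 1.013 and so change FPKM little. The knockout over wild-type ratio of the FPKM sums was 0.749 to 0.815 when any library was left out and 0.761 without both libraries set apart. In bulk tissue, fewer cells of a type and less RNA per cell cannot be told apart.

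Sums of FPKM of the classes H1, H2A, H2B and H3 did not overlap between the genotypes, and sums of H4 did. Scaled to each library's FPKM total, as for all members above, H3 overlapped and H4 did not. The scaled sums of H3 were 63.5, 22.7 and 38.4 in wild type and 21.3, 27.9 and 23.0 in the knockout. Those of H4 were 170, 184 and 178 against 160, 158 and 139. Overlap in H3 and H4 therefore depended on the scaling, while H1, H2A and H2B did not overlap on either scale. H2A came close on both, with scaled sums of 47.9 in wild-type replicate 2 and 46.1 in knockout replicate 3. The H1 genes summed to 83.5, 105 and 90.3 FPKM in wild type and to 75.9, 72.8 and 69.8 FPKM in the knockout, a ratio of 0.785. For H2A the values were 30.1, 23.4 and 24.5 FPKM against 22.4, 13.8 and 18.1 FPKM, a ratio of 0.696, and for H2B they were 81.2, 96.4 and 94.4 FPKM against 74.7, 67.3 and 58.4 FPKM, a ratio of 0.737. H3 sums were 22.6, 11.1 and 15.5 FPKM against 10.4, 11.1 and 9.01 FPKM, a ratio of 0.617, with replicate 2 of both genotypes nearly level. H4 sums of 60.6, 89.9 and 71.9 FPKM stood beside 77.99, 62.8 and 54.5 FPKM, a ratio of 0.878, and knockout replicate 1 lay above wild-type replicates 1 and 3. Without both libraries set apart the ratios were 0.821 for H1, 0.584 for H2A, 0.715 for H2B, 0.526 for H3 and 0.885 for H4. Without wild-type replicate 1 the H3 ratio was 0.761, and without wild-type replicate 2 the H4 ratio was 0.982.

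**Figure D1:**
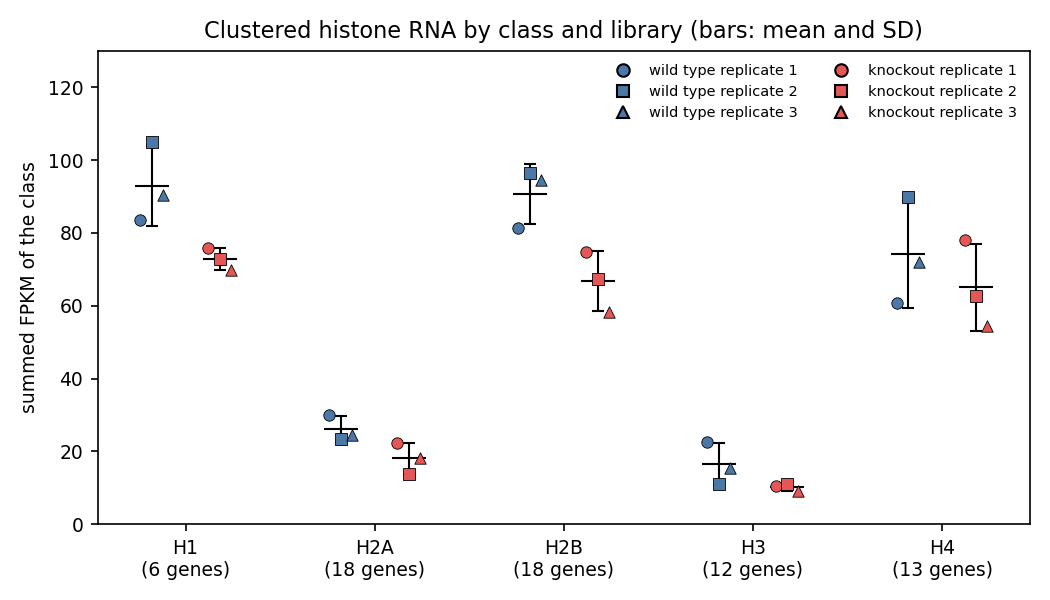
Summed FPKM of the genes of each histone class (vertical axis) in the 3 wild-type (blue) and 3 knockout (red) libraries, with a marker shape for each replicate number and bars for the mean and SD of each group. The knockout points lie below the wild-type points in H1, H2A and H2B, narrowly so in H2A (22.4 FPKM against 23.4 FPKM). Knockout points nearly touch wild-type points in H3 (11.1 FPKM in replicate 2 of both) and overlap with them in H4.

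A few genes carried most of this RNA. Hist1h1c, Hist1h4i, Hist1h2bc, Hist3h2ba and Hist2h2be together made up 73.6% of the summed FPKM. Their sum was 170.1, 258 and 221 FPKM in wild type and 201, 174 and 153 FPKM in the knockout, so the groups overlapped. The other 62 members summed to 108, 67.2 and 75.8 FPKM in wild type and 60.6, 53.9 and 56.7 FPKM in the knockout, a ratio of 0.683, or 0.799 without wild-type replicate 1. Wild-type replicate 1 was thus the lowest wild-type library for the 5 abundant genes and the highest for the rest. Scaled to each library's FPKM total, the 5 abundant genes did not overlap and the other 62 did. The scaled sums of the 5 were 478, 528 and 545 in wild type and 412, 438 and 391 in the knockout. Those of the 62 were 303, 137 and 187 against 124, 136 and 145. Overlap in these sets therefore depended on the scaling.

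Gene by gene, no member passed the test for a difference between the genotypes. Of the 67 genes, 60 had a value in at least 1 library and 26 reached a mean of 1 FPKM over the 6 libraries, the minimum for the test (2 H1, 6 H2A, 7 H2B, 5 H3 and 6 H4 genes). By limma on log2(FPKM + 1) with Benjamini-Hochberg adjustment over all 13619 genes and a threshold of 0.05, 0 of the 26 were called in either direction. Across all genes tested, 3.82% were called lower and 1.34% higher in the knockout. At an unadjusted p under 0.05 there were 6 members (23.1%), against 20.6% of all genes tested. Of these 6, Hist1h1b, Hist1h2ab and Hist1h2bb reached the minimum level only through the wild-type libraries, so the share describes the tested members only. The smallest limma adjusted p was 0.0755, for Hist1h2ab. The call depended on 2 settings. With limma's library weights 5 of 26 members were called lower, where 1803 of 13619 genes were called lower (24.6% in either direction). With each library's trend with exon length removed, Hist1h2ab and Hist1h2bc were called lower, 2 of 26 members. There, 837 of 13613 genes were called lower (8.93% in either direction).

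The log2 changes, knockout minus wild type, were below 0 for 23 of the 26 tested members (88.5%), against 40.9% of all genes tested. Their median was -0.26, with a range of -1.01 to 0.36, and the median of all genes tested was 0.06. Without wild-type replicate 1, 17 of 24 tested members lay below 0. In 5 tested members (19.2%), every wild-type library lay above every knockout library, against 13.7% of all genes. These were Hist1h1b, Hist1h2ab, Hist1h2af, Hist1h2bb and Hist1h2bc. In 0 tested members did every knockout library lie above every wild-type library, against 14.7% of all genes. Hist1h1b, Hist1h2ab and Hist1h2bb reached the minimum level only through the wild-type libraries, and clustered genes share sequence and regulation, so these counts describe the tested members and are not independent of each other. Nearest to the minimum, Hist4h4 was just above it with a mean of 1.01 FPKM and Hist1h2ag just below it with 0.992 FPKM.

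**Figure D2:**
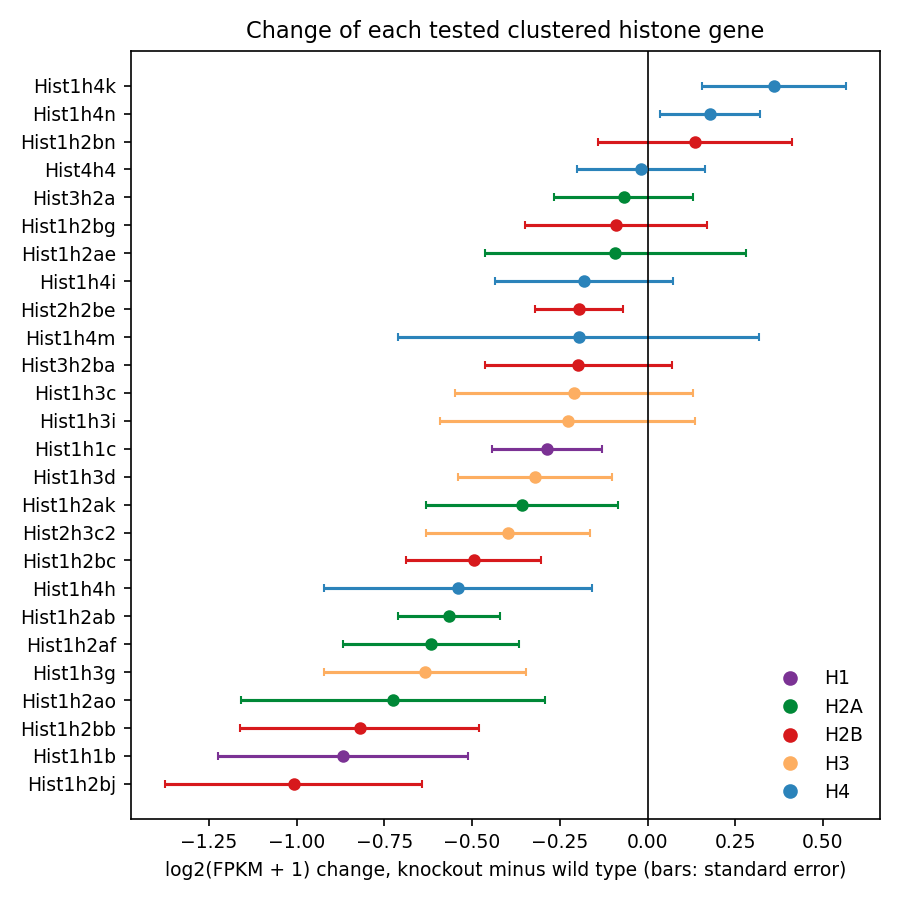
Change of each of the 26 tested genes on the log2(FPKM + 1) scale, knockout minus wild type (horizontal axis), with the standard error from limma as bars and the histone class as colour. Most points lie left of 0, from Hist1h2bj at -1.01 to Hist1h4k at 0.36, and none passed the threshold.

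Among the linker histones, Hist1h1c made up 87.9% to 98.3% of the H1 FPKM in each library. This gene is known also as a polyadenylated transcript in resting cells. It is 1560 bases long, from 23738808 to 23740367 on chromosome 13, and its annotated transcript runs 840 bases past the hairpin. Its level was 73.4, 102 and 87.2 FPKM in wild type and 74.7, 70.8 and 67.7 FPKM in the knockout (log2 change -0.29, SE 0.156, limma adjusted p = 0.372). Wild-type replicate 1 lay within the range of the knockout libraries.

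The other H1 genes were far lower and varied more between wild-type libraries. Hist1h1b had 4.64, 1.59 and 1.12 FPKM in wild type and 0.487, 0.927 and 0.778 FPKM in the knockout (log2 change -0.87, SE 0.356, limma adjusted p = 0.229). The groups did not overlap, and wild-type replicate 1 held 71 of the 137 reads. Hist1h1e, below the minimum for the test, had 2.26, 0.584 and 1.21 FPKM against 0.188, 0.476 and 0.958 FPKM, with overlapping groups. Its exons overlap those of Hist1h2be on the same strand, so their reads cannot be told apart there. Hist1h1t, the linker histone of spermatocytes, had 3 reads in all libraries together. Summed without Hist1h1c, the H1 genes had 10.1, 2.71 and 3.07 FPKM in wild type and 1.26, 2.09 and 2.13 FPKM in the knockout, a ratio of 0.344, which was 0.631 without wild-type replicate 1.

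H2A RNA was spread over many genes, and Hist1h2ao, the most abundant, made up 10.4% to 35.4% of the class in each library. It stood at 8.50, 4.80 and 8.66 FPKM in wild type and 6.28, 1.44 and 5.66 FPKM in the knockout (log2 change -0.72, SE 0.433, limma adjusted p = 0.414). The groups overlapped, and knockout replicate 2 was by far the lowest. Hist1h2ae ranged from 1.89 to 5.93 FPKM in wild type and from 1.81 to 4.54 FPKM in the knockout, with replicate 1 highest in both genotypes (log2 change -0.09, and 0.28 without wild-type replicate 1).

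Hist1h2af and Hist1h2ab were the tested H2A genes whose groups did not overlap. Hist1h2af had 3.16, 5.78 and 3.19 FPKM in wild type and 2.72, 1.44 and 2.61 FPKM in the knockout (log2 change -0.62, SE 0.251, limma adjusted p = 0.223). Hist1h2ab, named here after its values were seen, had 1.33, 1.84 and 1.41 FPKM against 0.765, 0.728 and 0.611 FPKM (log2 change -0.57, SE 0.145, limma adjusted p = 0.0755). It rested on 59 reads in 6 libraries, with 12 to 17 in each wild-type and 5 to 6 in each knockout library. Hist3h2a of the Hist3 cluster stood at 2.10 to 3.77 FPKM in wild type and 2.07 to 3.20 FPKM in the knockout (log2 change -0.07, and 0.10 without wild-type replicate 2). Each of the 18 H2A genes overlaps the exons of a gene on the opposite strand, and whether counting used strand is not known here, so reads of the partners may be included.

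H2B had 3 of the 5 most abundant members. Hist1h2bc, which has a second exon in the annotation and is known also as a polyadenylated transcript, stood at 31.3, 51.2 and 36.9 FPKM in wild type and 30.2, 27.2 and 25.0 FPKM in the knockout (log2 change -0.50, SE 0.193, limma adjusted p = 0.205). The groups did not overlap, though wild-type replicate 1 and knockout replicate 1 were close. Hist3h2ba, the H2B gene of the Hist3 cluster, had 17, 25.0 and 31.7 FPKM in wild type and 27.2, 20.2 and 16.0 FPKM in the knockout (log2 change -0.20, limma adjusted p = 0.745), with overlapping groups, and its log2 change was 0.00 without wild-type replicate 3. Hist2h2be, also known as a polyadenylated H2B gene, had the smallest standard error of the 5 abundant genes, at 8.69, 10.01 and 10.7 FPKM against 8.66, 9.16 and 7.52 FPKM (log2 change -0.19, SE 0.125, limma adjusted p = 0.453).

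The most negative changes in H2B were those of low genes. Hist1h2bj had 7.45, 2.43 and 3.59 FPKM in wild type and 0.912, 2.60 and 1.37 FPKM in the knockout (log2 change -1.01, SE 0.367, limma adjusted p = 0.177). Knockout replicate 2 lay above wild-type replicate 2, so the groups overlapped. Hist1h2bb had 3.25, 0.908 and 0.764 FPKM against 0.237, 0.339 and 0.569 FPKM (log2 change -0.82, SE 0.341, limma adjusted p = 0.235), without overlap, and wild-type replicate 1 held 34 of its 60 reads. Hist1h2bn was one of 3 tested members with a log2 change above 0. It stood at 2.93, 1.08 and 2.33 FPKM in wild type and 2.85, 2.71 and 1.52 FPKM in the knockout (0.14, limma adjusted p = 0.838). Its groups overlapped, and the log2 change was -0.13 without wild-type replicate 2 and -0.24 without both libraries set apart.

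H3 had no abundant member, and wild-type replicate 1 was the highest library for the 3 leading genes. Hist1h3c stood at 5.93, 1.63 and 2.20 FPKM in wild type and 2.49, 2.37 and 2.20 FPKM in the knockout (log2 change -0.21, limma adjusted p = 0.790). Hist1h3g had 5.04, 1.74 and 2.51 FPKM against 1.48, 1.19 and 1.85 FPKM (log2 change -0.63, SE 0.288, limma adjusted p = 0.276). Hist1h3i had 4.49, 1.12 and 2.97 FPKM against 2.35, 2.79 and 1.27 FPKM (log2 change -0.23). The groups of all 3 genes overlapped. Without wild-type replicate 1, the log2 changes of Hist1h3c and Hist1h3i were 0.21 and 0.08. The 5 tested H3 genes had log2 changes from -0.63 to -0.21.

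H4 was led by Hist1h4i, with 65.5% to 77.98% of the class in each library. Most H4 genes encode the same protein. Hist1h4i stood at 39.7, 70.1 and 54.3 FPKM in wild type and 60.1, 46.5 and 36.8 FPKM in the knockout (log2 change -0.18, SE 0.254, limma adjusted p = 0.756). Wild-type replicate 2 and knockout replicate 1, the libraries set apart, were the highest of their groups, and without wild-type replicate 2 the log2 change was 0.01. Hist1h4h had 6.30, 10.8 and 3.65 FPKM against 6.42, 3.91 and 2.58 FPKM (log2 change -0.54, limma adjusted p = 0.497), with overlapping groups.

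The 2 largest positive changes were in H4 genes. Hist1h4k had 2.18, 2.96 and 3.73 FPKM in wild type and 5.22, 3.13 and 3.89 FPKM in the knockout (log2 change 0.36, SE 0.205, limma adjusted p = 0.393), and with limma's library weights its log2 change was -0.02. Hist1h4n had 1.02, 0.953 and 1.16 FPKM against 1.40, 1.07 and 1.48 FPKM (log2 change 0.18). Hist1h4m ranged more within the genotypes than between them, from 2.04 to 5.10 FPKM in wild type and 0.90 to 5.89 FPKM in the knockout (log2 change -0.20, and 0.38 without knockout replicate 1). Hist4h4, the only member of its cluster, stood at 0.865 to 1.28 FPKM and 0.686 to 1.39 FPKM (log2 change -0.02, and 0.10 without knockout replicate 3). Groups overlapped in each of the 6 tested H4 genes.

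**Figure D3:**
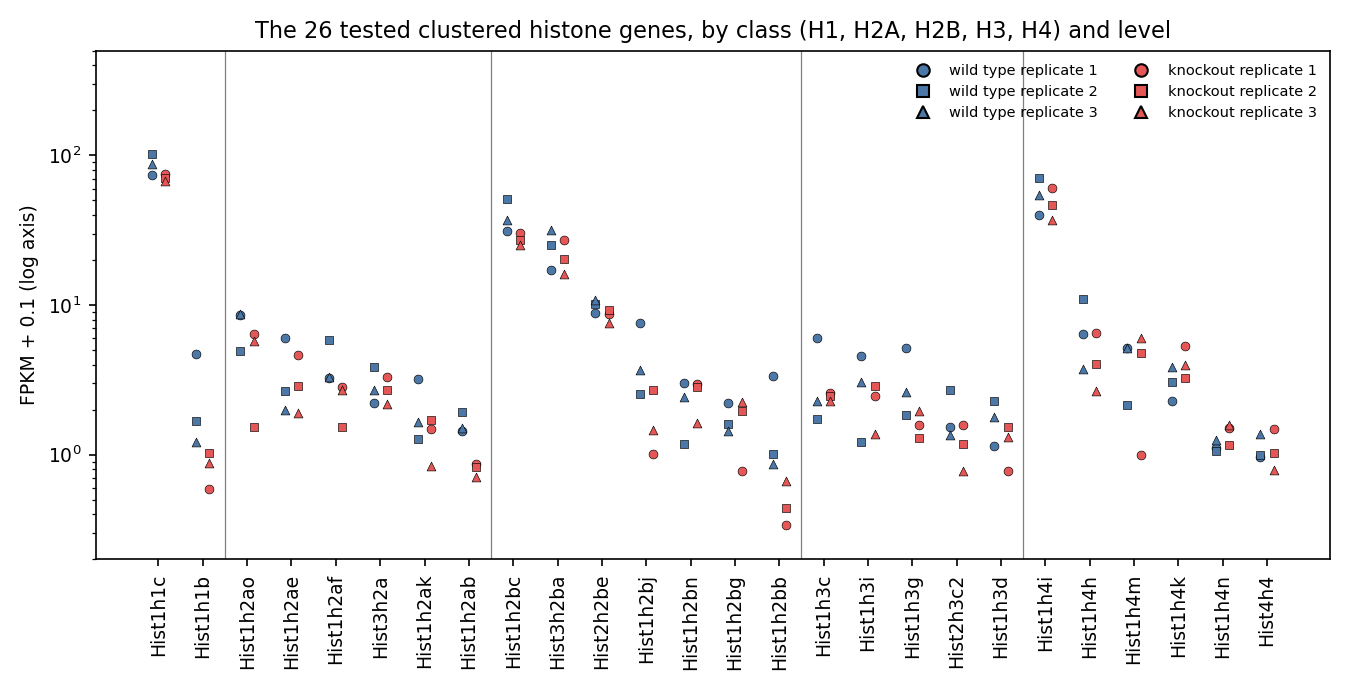
FPKM plus 0.1 on a log axis for the 26 tested genes, ordered by class and then by mean level, with wild-type libraries in blue and knockout libraries in red and a marker shape for each replicate number. The 4 genes above 10 FPKM, Hist1h1c, Hist1h2bc, Hist3h2ba and Hist1h4i, stand clear of the rest, and the blue circle of wild-type replicate 1 is the top point for Hist1h1b, Hist1h2bj, Hist1h2bb and the 3 leading H3 genes.

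The members were then grouped by how their annotated transcripts end relative to the hairpin. In 23 genes the transcript ends within 100 bases after the hairpin, and in 23 it runs on for 100 bases or more. In 21 no hairpin of the form searched for was found, and 11 of these are annotated as coding sequence only. Genes that end at the hairpin summed to 57.0, 32.0 and 37.8 FPKM in wild type and 26.2, 22.1 and 27.5 FPKM in the knockout, a ratio of 0.597. Their sums did not overlap, and the ratio was 0.724 without wild-type replicate 1. Genes that run past the hairpin, led by Hist1h1c and Hist1h4i, summed to 154.0, 217 and 190.7 FPKM against 179.5, 155 and 137 FPKM, a ratio of 0.839, with overlap, or 0.771 without wild-type replicate 1. Genes without a hairpin in the annotation, which include Hist1h2bc and Hist2h2be, had 67.02, 76.6 and 68.1 FPKM against 55.8, 50.9 and 45.3 FPKM, a ratio of 0.718, with no overlap. Scaled to each library's FPKM total, genes that end at the hairpin overlapped and genes that run past it did not. The scaled sums of the former were 160, 65.4 and 93.4 in wild type and 53.7, 55.6 and 70.3 in the knockout. Those of the latter were 433, 443 and 471 against 368, 390 and 350. Overlap in these kinds therefore depended on the scaling, while genes without a hairpin did not overlap on either scale. Without both libraries set apart the ratios of the 3 kinds were 0.523, 0.846 and 0.712. The difference between these ratios was not tested.

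Wild-type replicate 1 stood out in the genes that end at the hairpin. Its 581 reads there (95% Poisson interval 535 to 630) compare with 306 (273 to 342) and 331 (296 to 369) in wild-type replicates 2 and 3 and with 187 to 230 in the knockout libraries. The intervals cover counting error only. In the genes that run past the hairpin the same library had 3924 reads, against 5043 and 4071 in the other wild-type libraries. Over all 60 members with a value, wild-type replicate 1 was the highest library for 23, wild-type replicate 2 for 12 and the 3 knockout libraries together for 14. Among the 26 tested members it was the highest for 9 (34.6%), while among all genes tested it was the highest for 14.7%, and among those under 1000 bases for 11.0%. Wild-type replicate 2 was also the highest for 9 of the 26 (34.6%), against 21.9% of all genes tested and 25.4% of those under 1000 bases. Its part in the class differences was not tested beyond leaving it out, as above. The log2 changes of the 9 tested genes that end at the hairpin had a median of -0.57, those of the 9 that run past it -0.18 and those of the 8 without one -0.29. The first median is the value of Hist1h2ab, which like Hist1h2bb of the same 9 reached the minimum level only through the wild-type libraries. Hist1h1b, among the 8, did so too. These medians therefore describe the tested genes only, and nothing is read from their difference.

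**Figure D4:**
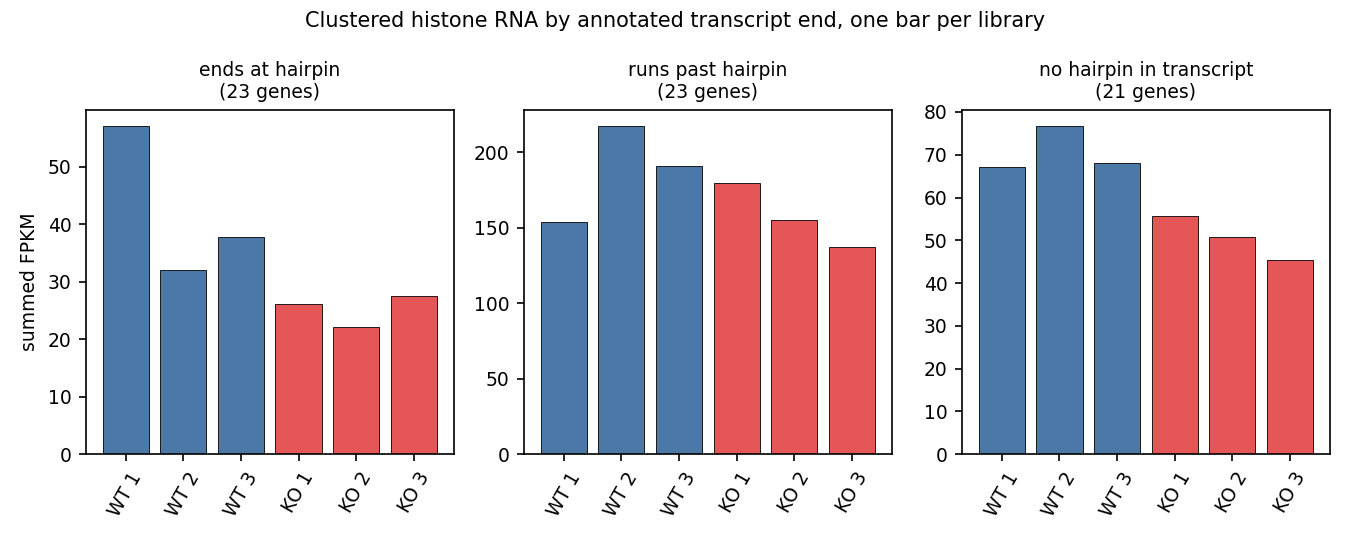
Summed FPKM (vertical axis, a separate scale in each panel) of the genes whose annotated transcript ends at the hairpin, runs past it or holds no hairpin, with 1 bar for each library, wild type (WT) in blue and knockout (KO) in red. Wild-type replicate 1 is the tallest bar in the first panel (57.0 FPKM) and the shortest of the wild-type bars in the second (154.0 FPKM).

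RNAs that carry no poly(A) tail were looked at beside these genes, from a list of small nuclear, Cajal body and other noncoding RNAs. Of 27 listed genes in the table, 14 were at 0 in every library and 4 reached the minimum for the test. Their sums were 7.58 to 17.8 FPKM in wild type and 11.8 to 19.1 FPKM in the knockout, and 0 of the 4 passed. Scarna13, a Cajal body RNA, had the smallest p-value of the 4, with 0.530, 2.61 and 2.22 FPKM in wild type and 0.439, 1.04 and 0.210 FPKM in the knockout (log2 change -0.77, limma adjusted p = 0.289). Rnu73b had a log2 change of 0.76 (limma adjusted p = 0.395). Rn7sk, one of the most abundant small nuclear RNAs of mammalian cells, stood at 0.670 to 1.39 FPKM in wild type and 1.04 to 3.46 FPKM in the knockout (log2 change 0.55, limma adjusted p = 0.388). How far these levels reflect the kit or the size of the RNAs was not tested.

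Most members share long stretches of sequence with annotated transcripts of other genes. Genes annotated over the same locus count among these, on either strand, and each of the 18 H2A genes overlaps such a gene. Sharing through such overlap was not separated from sequence repeated elsewhere. Of all windows of 50 bases in a member's transcripts, the median share found in no other gene's transcript was 45.9%, and 19 members had under 20%. Neither the read length nor the treatment of reads that match several genes is known here, so levels of such members are uncertain. The 5 abundant genes are among the more distinct ones, with 91.5% for Hist1h1c, 71.1% for Hist1h4i, 69.4% for Hist1h2bc, 77.9% for Hist3h2ba and 100% for Hist2h2be. Among the H2A genes named above, Hist1h2ao had 6.50% and Hist1h2af 6.00%. Named genes of other classes were also low, with 10.2% for Hist1h4m, 12.4% for Hist1h3i, 13.6% for Hist1h2bn and 14.4% for Hist1h4n.

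The 7 members at 0 in every library fall into 2 kinds. For 5 of them, Hist2h2aa1, Hist2h2aa2, Hist2h2bb, Hist2h3b and Hist2h3c1, no window was unique, and these were the only members without a unique window. Hist2h2bb shared windows only with Gm20628 and Gm42743, whose exons overlap its own. The other two, Hist1h2aa and Hist1h2ba, are the testis histones and had 76.2% and 61.8% unique windows. A count of 0 allows up to 3 reads, or 0.373 to 0.464 FPKM for Hist1h2aa and 0.379 to 0.471 FPKM for Hist1h2ba over the 6 libraries.

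Of the 34 members with a value that stayed below the minimum for the test, 3 (8.82%) had every wild-type library above every knockout library, and 3 (8.82%) had the reverse. Among all 15996 genes with a value below that minimum the shares were 9.12% and 4.12%, so the first is near the background, and nothing is read from 3 genes in the second. The first 3 were Hist1h2an, Hist1h2bp and Hist1h3a, and the others Hist1h2ad, Hist1h2bh and Hist1h2br. These 6 were named after their values were seen. Hist1h3a had 2.27, 0.768 and 1.04 FPKM in wild type and 0.678, 0.323 and 0.433 FPKM in the knockout. Hist1h2bh had 0.607, 0.702 and 0.726 FPKM against 0.970, 0.787 and 1.10 FPKM. Counts limit these values, since 22 members with a value had under 50 reads in all libraries together.

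**Figure D5:**
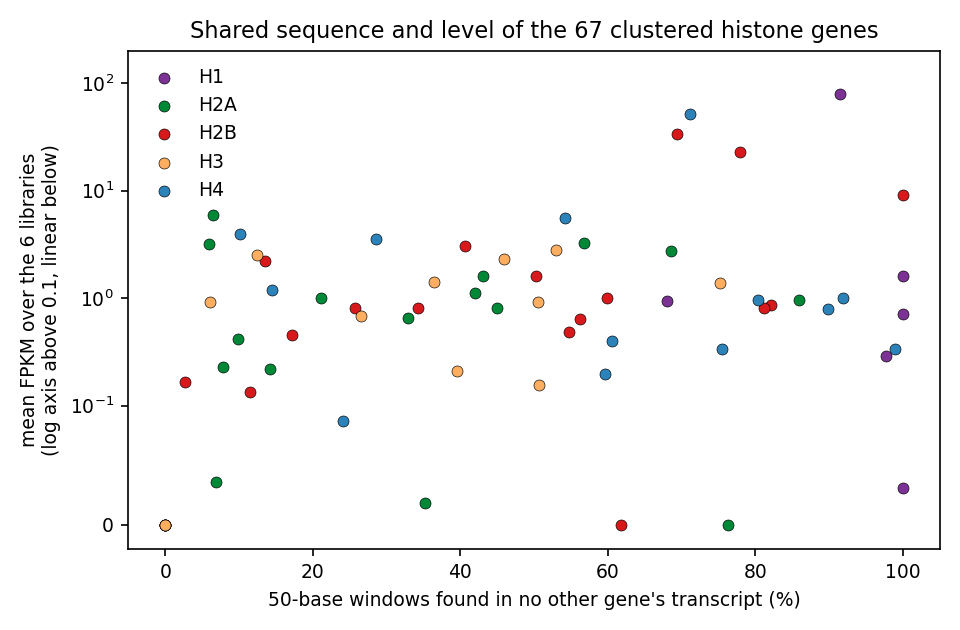
Mean FPKM over the 6 libraries (vertical axis, log above 0.1 and linear below) against the share of 50-base windows found in no other gene's transcript (horizontal axis, %), 1 point per gene and colour by class. The 5 genes without a unique window coincide at 0 on both axes, and the 5 most abundant genes lie at 69.4% or more.

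Promoter sequence was compared between the classes, since clustered histone genes are known for shared upstream elements. RefSeq windows (GRCm38.p6) of 300 bases, with 250 before and 50 after the start, were found for 62 members and searched on both strands for 4 motifs. The CCAAT box was in each of the 6 H1, 18 H2A, 16 H2B and 10 H3 genes searched and in 3 of the 12 H4 genes, against 37.4% of all 32851 windows. The octamer ATTTGCAT, known as an element of H2B promoters, was in 7 of 16 H2B and 7 of 18 H2A genes and in 0 of the other classes, against 1.74% of all windows. H2A and H2B genes often lie head to head, so that their windows can overlap and hold the same octamer. AAACACA, known as the H1 box, was in 5 of 6 H1 genes, 2 H2A and 2 H2B genes and 0 of the H3 and H4 genes, against 7.18%. TATAAA was in 35 of the 62 windows, from 40% of H3 to 66.7% of H1 and H4 genes, against 13.6% of all windows.

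The 150 bases before the start are shown for the leading H1 and H4 genes and for Hist1h2bj, the member with the lowest log2 change, with matches to the motifs in capitals on either strand.
Hist1h1c, plus strand, chr13:23738657-23738806: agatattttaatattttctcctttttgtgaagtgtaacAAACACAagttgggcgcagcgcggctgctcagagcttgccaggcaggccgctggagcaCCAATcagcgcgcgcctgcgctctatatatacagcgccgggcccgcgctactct
Hist1h4i, minus strand, chr13:22041363-22041512: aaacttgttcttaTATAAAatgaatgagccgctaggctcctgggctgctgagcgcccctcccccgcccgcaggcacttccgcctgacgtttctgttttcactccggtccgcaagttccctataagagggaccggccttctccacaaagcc
Hist1h2bj, plus strand, chr13:22043048-22043197: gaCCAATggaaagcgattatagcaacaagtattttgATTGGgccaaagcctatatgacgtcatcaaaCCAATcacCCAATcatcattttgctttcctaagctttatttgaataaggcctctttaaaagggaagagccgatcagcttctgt
Hist1h1c has an H1 box starting 112 bases and a CCAAT box starting 54 bases before the start. Hist1h2bj has 4 CCAAT boxes in the stretch shown, 1 of them on the opposite strand, and Hist1h4i has none. A match describes the letters only.

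Genes that act on histone RNA or protein did not pass the test in either direction. Of 27 tested genes for histone mRNA transcription and processing, 0 were called (median log2 change 0.15), and Slbp itself stood at 34.2 ± 3.30 FPKM in wild type and 33.7 ± 4.77 FPKM in the knockout (SD, n = 3). Ncbp1, a cap-binding protein, had a log2 change of 0.38 (limma adjusted p = 0.115), Lsm11 of the U7 particle that cuts histone RNA at its end 0.29 and Snrpg 0.45. Of 23 histone chaperones 0 were called (median 0.10). Their summed level was 747 to 842 FPKM in wild type and 904 to 1048 FPKM in the knockout, and Npm1, a nucleolar chaperone, had a log2 change of 0.66 (limma adjusted p = 0.129). Without Npm1 the sums of the other 22 chaperones overlapped, at 607 to 673 FPKM in wild type and 644 to 724 FPKM in the knockout.

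Genes listed as replication-independent histones, most of which are transcribed also outside S phase with poly(A) tails, had 0 of 12 tested members called. Their median log2 change was 0.02. The macroH2A genes differed in sign. H2afy stood at 31.0 ± 2.37 FPKM in wild type and 43.7 ± 4.53 FPKM in the knockout (SD, n = 3; log2 change 0.48, limma adjusted p = 0.0852). H2afy2 stood at 2.65 ± 0.780 and 1.34 ± 0.164 FPKM (log2 change -0.63, limma adjusted p = 0.0974). The linker histone gene H1fx had 1.94 ± 0.337 and 1.03 ± 0.219 FPKM (log2 change -0.53, limma adjusted p = 0.104).

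Genes of the S phase, in which clustered histone genes are transcribed, did not pass the test either. Of 36 tested, 0 were called, the median log2 change was 0.05, and the sums were 1352 to 1673 FPKM in wild type and 1369 to 1625 FPKM in the knockout. The replication factor gene Cdc45 had a log2 change of 0.30, the cyclin gene Ccne1 -0.26 and the kinase gene Cdk2 0.22. Of 20 genes of G2 and mitosis, 0 were called, with a median of 0.20. The tested histone genes, some of which reached the minimum level only through the wild-type libraries, had a median of -0.26. The difference from these lists was not tested.

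Marker RNAs of neutrophil precursors, B cell precursors, chondrocytes and bone-forming cells were called between the genotypes, and none of erythroblasts or megakaryocytes were. Of 11 tested markers of neutrophil precursors, which divide in the marrow, 5 were called higher, and their sums were 7022 to 12127 FPKM in wild type and 13030 to 16186 FPKM in the knockout. Of 12 B cell precursor markers 2 were called lower, the surrogate light chain genes Vpreb1 and Igll1, with list sums of 330 to 421 FPKM and 219.8 to 411 FPKM. Of 11 chondrocyte markers 10 were called lower, with sums of 377 to 563 FPKM in wild type and 9.68 to 61.3 FPKM in the knockout. Osteoblast and osteocyte markers had 4 of 12 called lower. Of 15 erythroblast and 11 megakaryocyte markers 0 were called, with medians of 0.07 and 0.35. Male germ cell markers summed to 0.908 to 2.87 FPKM in the 6 libraries, with Prm2 and Tnp1 at 0. The part of these cell types in the histone levels was not tested.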

How the data were processed

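The authors deposited 1 table of FPKM values for 54532 genes in 6 libraries. The submitters' processing notes list Bowtie 0.12.2 and the build mm10, and the counting tool, annotation, read length and use of strand were not given in these sources. GENCODE M21 supplied symbols for 54495 of the gene IDs. FPKM times exon length gave whole reads (tolerance 0.01) for 96.9% of 29600 genes and for all 60 members with a value, and recovered reads are summed over the genes that gave whole reads. Genes with a mean of at least 1 FPKM were compared as log2(FPKM + 1), which understates the change of low genes, with limma 3.58.1 in R 4.3.3 (two-sided, variance trend, Benjamini-Hochberg over 13619 genes, threshold 0.05). Sums of members were given no test. The fit was also run on simulated data, drawn without the trends with exon length seen here. That run does not measure the error rate of the fit in these libraries. Replicates of a genotype gave a chi-square of recovered reads of 12.4 to 66.4 per degree of freedom, beyond sampling noise, and each was kept as a replicate.

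The members and lists were chosen with earlier results of these data known. Named were the 3 most abundant genes per class, the 3 largest changes each way, the Hist3 and Hist4 genes, the germ-line and the known polyadenylated members, and up to 3 genes with the smallest p per list; exceptions are marked, and Slbp, Prm2 and Tnp1 were named outside the rule for their role. Promoter sequences came from RefSeq; Hist1h2bc, Hist1h3a, Hist1h3f, Hist2h2be and Hist2h4 had no entry. The alternatives covered pseudocount, filter, scaling, variance model, library weights, pairing, recovered reads (limma's voom), exon length and libraries left out. Figures were drawn with matplotlib 3.10.9.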

Additional observations from a re-analysis of the deposited data

How the results depend on the processing

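Over the 18 alternative settings, 0 members were called higher in any, and members were called lower in 2. With limma's library weights 5 of 26 were lower (Hist1h2ab, Hist1h2af, Hist1h2ao, Hist1h2bc and Hist1h3g), where 1803 of 13619 genes were lower (24.6% in either direction). With each library's trend with exon length removed 2 of 26 were lower (Hist1h2ab and Hist1h2bc), where 837 of 13613 genes were lower (8.93% in either direction). In the other 16 settings 0 were lower. Of the genes for histone RNA processing, histone chaperones, replication-independent histones, S phase, and G2 and mitosis, 0 passed in the main setting, 2 with quantile normalization, 15 with library weights and 3 with the length trend removed. The median log2 change of tested members was -0.26, -0.35 with voom on recovered reads, -0.47 without wild-type replicate 2 and knockout replicate 1 (32 members tested) and -0.38 to -0.20 when any 1 library was left out, and without a filter 50 of 60 members lay below 0. Of 390 log2 changes of the 22 named tested members over these settings, 18 in 10 genes took the other sign. None of the 18 passed the threshold. Class ratios were computed in 9 alternatives, most of which left libraries out. The ratios ran from 0.747 to 0.839 for H1, 0.584 to 0.778 for H2A and 0.693 to 0.783 for H2B. For H3 they ran from 0.526 to 0.761 and for H4 from 0.791 to 0.982. The causes were not tested. With the replicate number as a block, 0 members were called lower or higher, and 127 genes overall against 703. Deviations of same-numbered libraries had correlations across genes of -0.49, -0.27 and 0.16, and 1 of 6 libraries correlated best with its own number. These values cannot decide whether same-numbered libraries were prepared together, since each library's trend with exon length enters its deviations. Low read numbers limit most members, and 3 libraries per genotype limit the test.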
